A study of Mus musculus with 12 samples.

Results

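Described here are 19 genes of MC3T3-E1 cells, a mouse preosteoblast line, whose level was low before bone differentiation and high on every later day, with and without interferon beta (IFN). They were chosen by their measured levels. Counts were divided by the library total to give CPM, the count that a library of 1000000 would have, and a gene was taken when its lowest CPM in the 8 libraries of days 14 and 21 was at least 5 and at least 4 times its highest CPM in the 4 libraries of day 0. Of 55291 symbols, 9410 had at least 5 CPM in all 8 later libraries, and 19 of those met the whole rule (0.202%). Because the rule used day 14 and day 21 against day 0, those differences are given as a description without a test. For orientation, all 8 later libraries lay above all 4 day 0 libraries for 4.43% of the 17289 genes tested. Each of the 19 was among those tested.

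The study had 12 poly(A) RNA libraries in 6 groups of 2. Wild-type cells of the line were sampled 2 days after confluence (day 0) and after 14 and 21 days of bone differentiation, in a control arm and in an arm given mouse IFN beta at 50 mg/L since the start of differentiation. The agents that induced differentiation are not named in the labels. The day 0 samples of the IFN arm are listed with the same 50 mg/L, although day 0 came before differentiation. Whether these cells had met IFN is not stated, so day 0 of both arms is shown separately. The labels do not say that the replicates were separate cultures, so p-values measure only the spread between these libraries, which may be technical.

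Osteoblasts build bone matrix. Cultures of preosteoblasts pass from growth through matrix production to mineralization over weeks, and glucocorticoids are among the hormones that act on this path. The glucocorticoid receptor is a hormone-bound transcription factor, and Fkbp5, Tsc22d3 and Zbtb16 are textbook targets of it in many cell types. Type I interferons act through a cell-surface receptor and STAT factors on a separate set of antiviral genes.

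Library totals ran from 29772425 to 38908453 counts, at which 3 counts were worth between 0.0771 and 0.101 CPM. Replicates lay closer together in the IFN arm than in control. Among the 19 genes, the higher replicate was in the median 1.37 (day 0), 1.40 (day 14) and 1.65 times (day 21) the lower in control, and 1.27, 1.10 and 1.18 times with IFN. One library stood apart from the rest. Control day 21 replicate 2 had 20758 CPM of Hspa5, an endoplasmic reticulum chaperone gene, against 574 to 1892 CPM in the other 11 libraries. Control day 0 replicate 1 had 21509 CPM of a ribosomal RNA gene, against 1126 CPM in its replicate and 103 to 8415 CPM in the other 10 libraries. Without these 2 libraries the same rule took 35 genes instead of 19, and without control day 0 replicate 1 alone it took 29. With IFN, 50 of the 54 tested genes of an interferon-stimulated list were called higher at day 14, which checks the label of that arm, and none of the 19 genes is on that list.

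RefSeq promoters (build GRCm38.p6, 250 bases before to 50 after a transcript start) were at hand for 16 of the 19 genes, 24 promoters in all. The following 4 belong to genes whose values come later, and were taken because they held a searched motif in an upstream part of at least 200 bases outside annotated exons and their start matched an annotated transcript. Promoters of Serpina3n and Tsc22d3 that held a motif but did not meet the last condition are not printed. The motifs were searched on both strands and are in capitals. AGAACA is one arm of the glucocorticoid receptor's palindrome, AACCACA is bound by RUNX factors, the family of the bone regulator Runx2, TTGCNNAA by C/EBP factors, TGTTTAC by forkhead factors and TTCNNNGAA by STAT factors. Sequences run 5′ to 3′ in the direction of the gene.
Tnn, chr1:160153581-160153825, minus strand: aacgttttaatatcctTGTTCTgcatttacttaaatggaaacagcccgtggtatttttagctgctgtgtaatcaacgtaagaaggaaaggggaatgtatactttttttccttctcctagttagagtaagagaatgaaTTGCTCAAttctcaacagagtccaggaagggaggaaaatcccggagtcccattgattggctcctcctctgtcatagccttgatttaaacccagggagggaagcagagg
Mmp13, chr9:7272264-7272513, plus strand: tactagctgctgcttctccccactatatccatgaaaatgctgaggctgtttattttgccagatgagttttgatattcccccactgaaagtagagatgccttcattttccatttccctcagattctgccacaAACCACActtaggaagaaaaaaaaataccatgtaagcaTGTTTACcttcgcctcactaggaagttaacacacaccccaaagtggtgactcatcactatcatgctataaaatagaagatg
Trim63, chr4:134314870-134315119, plus strand: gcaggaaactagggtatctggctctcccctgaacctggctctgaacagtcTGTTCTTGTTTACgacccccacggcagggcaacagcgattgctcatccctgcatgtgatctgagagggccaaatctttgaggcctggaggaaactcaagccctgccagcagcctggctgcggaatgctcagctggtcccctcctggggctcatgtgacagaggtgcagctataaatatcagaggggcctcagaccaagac
Ctla2a, chr13:60936626-60936875, minus strand: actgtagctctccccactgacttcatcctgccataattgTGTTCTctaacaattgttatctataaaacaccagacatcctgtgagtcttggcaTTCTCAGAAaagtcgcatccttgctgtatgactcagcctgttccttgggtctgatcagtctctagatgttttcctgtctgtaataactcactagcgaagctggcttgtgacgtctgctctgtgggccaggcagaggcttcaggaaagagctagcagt

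Tnn held AGAACA and TTGCNNAA, Mmp13 held AACCACA and TGTTTAC, Trim63 held AGAACA directly followed by TGTTTAC, and Ctla2a held AGAACA and TTCNNNGAA. AGAACA was in 5 of the 24 promoters (20.8%), those of Tnn, Trim63, Serpina3n, Ctla2a and Tsc22d3, and in 19% of all 32851 RefSeq promoters. The whole palindrome, AGAACA followed after any 3 bases by its reverse complement, contains AGAACA. It was in 0 of the 24 and in 0.00913% of all. The search took exact matches only and found 3 among all promoters, so its absence from the 24 says little. The printed Trim63 sequence holds tgaacagtcTGTTCT, which differs from the palindrome only in the first base. Inexact matches were not counted. TTGCNNAA was in 8.33% against 10.8% of all, in Tnn and Lcn2. AACCACA was in 8.33% against 5.27%, in Mmp13 and Tsc22d3. TGTTTAC was in 8.33% against 3.65%, in Trim63 and Mmp13, and TTCNNNGAA in 12.5% against 8.3%, in Ctla2a and Tsc22d3. That 12.5% is 3 of the 24 promoters, from 2 genes. Ctla2a has overlapping promoters, and their matches at -157 and -216 are the same site, counted in both. Each of these shares rests on at most 5 promoters. A match is a description of the sequence, and binding was not measured here.

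The first group of members holds regulators known to respond to glucocorticoids. Fkbp5 (ENSMUSG00000024222.17, chr17:28399094-28517527, minus strand) encodes a co-chaperone that binds the glucocorticoid receptor complex. Its level was 28.1 and 34.2 CPM in control at day 0, 1002 and 718 by day 14 and 525 and 237 by day 21. With IFN it was 37.7 and 34.3 (day 0), 602 and 563 (day 14) and 499 and 516 (day 21) CPM. All 8 later libraries were high, most of all control day 14, and the lowest of them was the control day 21 library that stood apart. Since these are bulk cultures, a higher level per cell and a larger share of cells that express a gene cannot be told apart. Tsc22d3 (ENSMUSG00000031431.13, chrX:140539528-140600659, minus strand), known as GILZ, encodes a small leucine zipper protein that dampens inflammatory transcription. Its 2 control libraries had 34.8 and 42.5 CPM at day 0, 1047 and 758 by day 14 and 502 and 309 by day 21, and those with IFN 50.3 and 45.8 (day 0), 556 and 517 (day 14) and 408 and 361 (day 21). As for Fkbp5, control day 14 was highest and the libraries of day 21 were lower in both arms. Per kilobase of exon, Tsc22d3 was the most abundant of the 19 genes over the 8 later libraries (128 CPM per kb), before Errfi1 (98.3) and Fkbp5 (61.5).

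Zbtb16 (ENSMUSG00000066687.5, chr9:48654297-48836222, minus strand) encodes PLZF, a zinc finger transcription factor that osteoblast precursors express when they differentiate. It had the widest gap of the 19 genes. The day 0 libraries held 0 and 4 counts in control and 4 and 4 with IFN. At days 14 and 21 the control libraries had 55.6 and 23.2 and then 26.7 and 25.4 CPM, and those with IFN 24.1 and 18.5 and then 36.4 and 39.1. The lowest later library was 147 times the highest day 0 library, though the level per kilobase (5.89 CPM per kb) ranked only 14 of 19.

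Errfi1 (ENSMUSG00000028967.10, chr4:150853919-150868892, plus strand) encodes a feedback inhibitor of the EGF receptor. It stood at 50.7 and 38.4 CPM in control day 0, 301 and 207 by day 14 and 330.4 and 546 by day 21, against 44.7 and 45.8 (day 0), 255 and 219.8 (day 14) and 505 and 455 (day 21) with IFN. The arms lay close together on each day, and day 21 was above day 14 in both. Klf15 (ENSMUSG00000030087.11, chr6:90462576-90475238, plus strand), a Krüppel-like transcription factor of metabolic genes, and Trim63 (ENSMUSG00000028834.13, chr4:134315120-134329629, plus strand), which encodes the muscle ubiquitin ligase MuRF1, are known glucocorticoid targets in muscle. Klf15 went from at most 1.20 CPM at day 0 to between 5.65 and 14.9 CPM later. Trim63 went from at most 0.662 CPM to between 5.65 and 11.2 CPM. They were the weakest of the 19 by mean CPM. The regulators of muscle identity were near 0 beside them. Myod1 and Myog had at most 4 and 3 counts in any library, and the muscle creatine kinase gene Ckm at most 24. Other muscle markers were higher later. Of the list of 13, Des (desmin) and Tnni1 (a troponin gene) lay above day 0 in all 8 later libraries, with at most 11.7 and 17.0 CPM, and the summed level of the list was 5.71 to 8.20 CPM at day 0 and 10.4 to 25.3 CPM later. Their part in the levels of Klf15 and Trim63 was not tested.

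**Figure D1:**
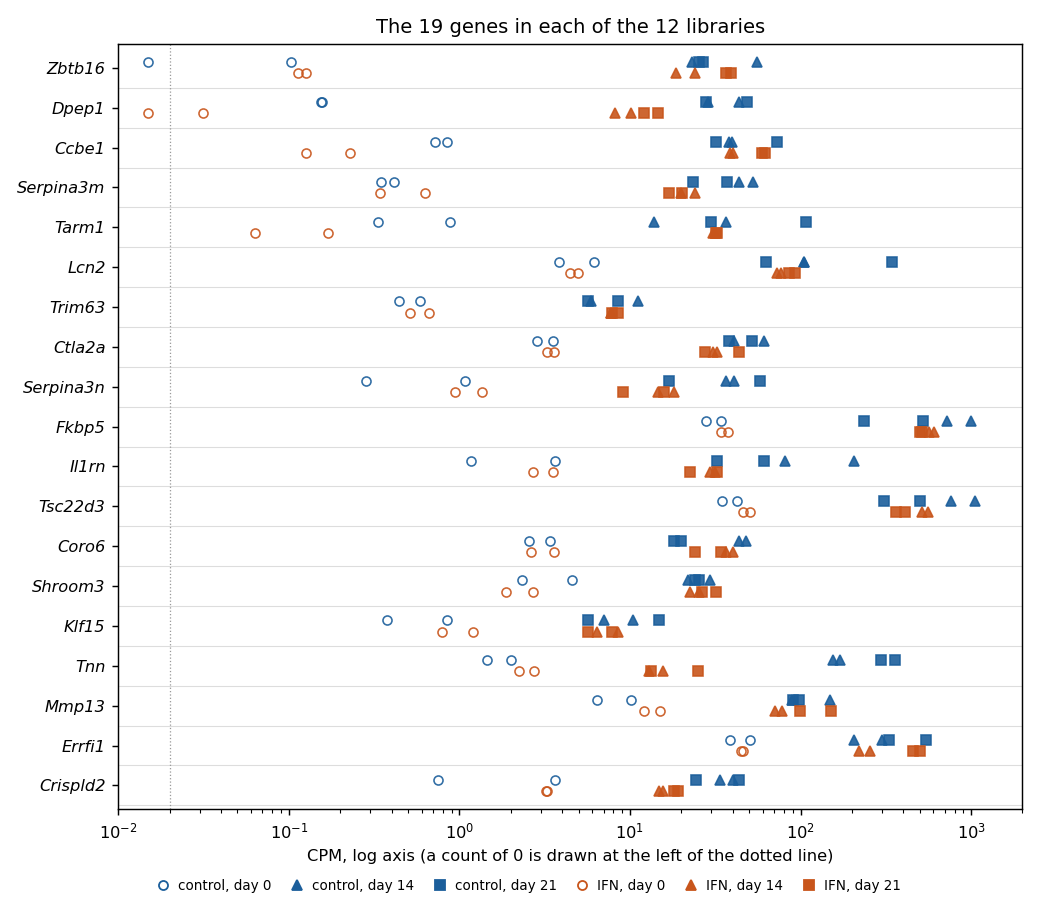
CPM on a log axis (x) for each of the 19 genes (y, ordered by the ratio of the lowest later library to the highest day 0 library). Each point is 1 library, blue for control and orange for IFN, with open circles for day 0, triangles for day 14 and squares for day 21. Every later library lies to the right of every day 0 library, as the rule requires, and Tnn shows the widest split between the arms.

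The second group holds secreted and surface proteins of the acute phase and of immune cells. Lcn2 (ENSMUSG00000026822.14, chr2:32384633-32388252, minus strand) encodes lipocalin 2, which binds iron-carrying siderophores. It had 3.83 and 6.19 CPM in control at day 0, 105 and 104 by day 14 and 343 and 62.6 by day 21, and 4.95 and 4.46 (day 0), 72.5 and 77.2 (day 14) and 92.2 and 85.1 (day 21) with IFN. The control day 21 pair differed 5.48-fold, the largest ratio among the pairs of replicates of the 19 genes in which neither was at 0, and enclosed both IFN libraries of that day. Il1rn (ENSMUSG00000026981.15, chr2:24336853-24351494, plus strand) encodes the interleukin 1 receptor antagonist. Its CPM was 1.16 and 3.62 at day 0, 81.2 and 205 by day 14 and 61.1 and 32.2 by day 21 in control, and 3.56 and 2.70 (day 0), 31.3 and 29.6 (day 14) and 32.4 and 22.5 (day 21) with IFN. Control day 14 was high, and the 4 later IFN libraries stayed within a narrow band. Tarm1 (ENSMUSG00000053338.9, chr7:3486500-3502624, minus strand) encodes an immunoglobulin-type receptor known from myeloid cells. Its control libraries had 0.879 and 0.334 CPM at day 0, 13.9 and 36.8 by day 14 and 29.9 and 108 by day 21, and those with IFN 0.063 and 0.170 (day 0), 31.5 and 30.6 (day 14) and 32.0 and 32.5 (day 21). The highest value came from the control library that stood apart.

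Several defining markers of myeloid cells were at or near 0 beside these genes. Tyrobp, the signalling adaptor of myeloid receptors, had 0 counts in all 12 libraries, and Ptprc, Adgre1 and Itgam had at most 4, 3 and 6 counts. Over the whole list of 12 macrophage and osteoclast markers the summed level was 291 to 361 CPM in control at day 0, 352 to 489 at day 14 and 70.7 to 408 at day 21, and with IFN 251 to 262, 557 to 571 and 481 to 519. Ctsk, a protease gene that mesenchymal cells also express, made up most of that sum. Cd14 (4.40 to 20.5 CPM), Lyz2 (5.45 to 34.8 CPM) and Cd68 (1.26 to 10.8 CPM) of the same list were present in all 12 libraries, and 0 of the 12 markers lay above day 0 in all later libraries. Their part in the levels of these members was not tested.

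Serpina3m (ENSMUSG00000079012.11, chr12:104338486-104394257, plus strand) and Serpina3n (ENSMUSG00000021091.8, chr12:104406729-104414329, plus strand) encode serine protease inhibitors of one gene cluster and are next to each other, 12472 bases apart. Serpina3m had 0.345 and 0.411 CPM in control at day 0, 52.6 and 43.5 by day 14 and 37.2 and 23.3 by day 21, and 0.630 and 0.341 (day 0), 24.0 and 20.0 (day 14) and 20.1 and 17.0 (day 21) with IFN. For Serpina3n the values were 0.283 and 1.08 (day 0), 36.6 and 40.5 (day 14) and 57.8 and 16.9 (day 21) in control and 0.945 and 1.36 (day 0), 18.2 and 14.6 (day 14) and 15.8 and 9.12 (day 21) with IFN. In both genes each IFN library of days 14 and 21 was below each control library of the same day. The other Serpina3 genes did not meet the rule. The highest of them, Serpina3f, averaged 9.67 CPM at day 0 and 19.5 CPM later, and its lowest later library (1.41 CPM) was below its highest day 0 library (10.9 CPM). Exons of Serpina3m overlap those of Serpina3k, and genes of this cluster are close copies, so the split of reads among them is uncertain.

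The third group holds matrix and extracellular proteins. Tnn (ENSMUSG00000026725.17, chr1:160085029-160153580, minus strand) encodes tenascin N, also called tenascin W, a matrix glycoprotein of developing bone. It was at 1.44 and 2.00 CPM in control day 0, 171 and 154 by day 14 and 295 and 358 by day 21. With IFN it was at 2.24 and 2.73 (day 0), 15.7 and 12.9 (day 14) and 24.9 and 13.3 (day 21) CPM. Day 0 was low in both arms, and the later control libraries lay far above the later IFN libraries on both days. The other tenascin genes did not meet the rule. Tnc averaged 33.5 CPM at day 0 and 124 CPM later, but its lowest later library (28.4 CPM) was below its highest day 0 library (38.0 CPM), and Tnr and Tnxb averaged less later than at day 0.

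Mmp13 (ENSMUSG00000050578.10, chr9:7272514-7283331, plus strand) encodes collagenase 3, which cuts fibrillar collagen and is a known product of differentiated osteoblasts. The control libraries had 6.37 and 10.2 CPM at day 0, 89.6 and 148 by day 14 and 90.7 and 98.5 by day 21, and those with IFN 12.1 and 15.1 (day 0), 78.2 and 71.1 (day 14) and 152 and 99.0 (day 21). IFN was below control at day 14 and above it at day 21, with little room between the groups. Ctla2a (ENSMUSG00000044258.10, chr13:60934155-60936625, minus strand) encodes an inhibitor related to the propeptide of cathepsins. Its later CPM was 61.2 and 40.9 and then 38.2 and 52.1 in control and 32.5 and 30.5 and then 27.7 and 43.5 with IFN, from between 2.86 and 3.58 CPM at day 0. Its close relative Ctla2b never passed 0.595 CPM. Exons of Ctla2a overlap those of the predicted genes Gm49393 and Gm49391 on the same strand, so the split of reads among them is uncertain.

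Ccbe1 (ENSMUSG00000046318.16, chr18:66045302-66302741, minus strand) encodes a secreted protein needed for lymphatic vessel growth. It had 0.848 and 0.720 CPM at day 0, 38.1 and 39.9 by day 14 and 73.0 and 31.9 by day 21 in control, and 0.126 and 0.227 (day 0), 40.4 and 38.5 (day 14) and 61.6 and 59.8 (day 21) with IFN. The libraries of both arms lay close together at day 14, while at day 0 both IFN libraries were below both control libraries, at 4 and 8 counts. Exons of Ccbe1 overlap the antisense gene Gm15958, and without stated use of strand their reads cannot be told apart. Crispld2 (ENSMUSG00000031825.16, chr8:119992438-120052793, plus strand) encodes a secreted protein with a cysteine-rich domain. In control it was at 0.754 and 3.65 CPM at day 0, 33.6 and 40.4 by day 14 and 24.4 and 43.7 by day 21, and with IFN at 3.28 and 3.21 (day 0), 15.7 and 14.7 (day 14) and 18.1 and 19.2 (day 21). Its control day 0 pair differed 4.84-fold, and it was the member nearest to the limit of the rule.

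The remaining members are Dpep1, an enzyme gene, and a pair of cytoskeletal genes. Dpep1 (ENSMUSG00000019278.5, chr8:123186242-123201812, plus strand) encodes a membrane-bound dipeptidase. It had 5 and 6 counts in control at day 0 and 1 and 0 counts with IFN. At days 14 and 21 control had 43.3 and 28.8 and then 27.9 and 48.5 CPM, and IFN 10.2 and 8.20 and then 14.6 and 12.1. From a single count at day 0, the IFN arm was 620 times higher at day 14 (95% interval 111 to 24531) and 894 times higher at day 21 (160 to 35353). These exact intervals cover counting error only, and their width shows how little a single count fixes the fold. The rule chose the gene by this same gap, so the intervals are a description and no test of the rise. Coro6 (ENSMUSG00000020836.15, chr11:77462411-77470484, plus strand) encodes an actin-binding coronin. Its CPM was 2.54 and 3.39 (day 0), 43.6 and 47.9 (day 14) and 20.0 and 18.1 (day 21) in control and 3.59 and 2.61 (day 0), 36.4 and 40.1 (day 14) and 34.0 and 24.0 (day 21) with IFN. Shroom3 (ENSMUSG00000029381.16, chr5:92683435-92965318, plus strand) encodes an actin-binding protein of cell shape. It had 1.88 to 4.58 CPM at day 0 and 21.9 to 32.1 CPM later. That later range was the narrowest of the 19 genes (1.46-fold from lowest to highest), and the level per kilobase the lowest (1.96 CPM per kb). Exons of Shroom3 overlap those of 4932430I15Rik, a noncoding gene on the other strand. Without stated use of strand their reads cannot be told apart.

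Just inside the limit of 4 were Tnn (4.72), Mmp13 (4.71), Errfi1 (4.07) and Crispld2 (4.04). Just outside were Sgk1 (3.77), a kinase gene induced by steroids, Lbp (3.61), which encodes the lipopolysaccharide-binding protein, and Fabp4 (3.44), a fatty acid-binding protein gene. The lowest of the 8 later libraries was control day 21 replicate 2 for 5 genes and IFN day 14 replicate 2 for another 5, and the other 9 were spread over 5 libraries. With a fold of 3 in place of 4 the rule took 26 genes, and with 6 it took 12.

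Whether IFN changed the level reached by the 19 genes was tested at each day, a contrast the rule did not use. At day 14 edgeR's quasi-likelihood test with Benjamini-Hochberg adjustment called 4 of the 19 lower with IFN and 0 higher. At an unadjusted p below 0.05 there were 11, all of them lower (13.8% of all genes in either direction), and DESeq2 called 5 lower, where it called 3.55% of all genes lower. Of all genes tested, 0.995% were called lower and 1.3% higher. The 4 were Tnn, Dpep1, Serpina3m and Il1rn. Tnn averaged 163 ± 12.1 CPM in control and 14.3 ± 2.00 with IFN (SD, n = 2 each), a log2 difference of -3.55 ± 0.33 (SE) at an adjusted p of 0.000387. Dpep1 averaged 36.0 ± 10.2 against 9.18 ± 1.39 CPM, or -2.02 ± 0.38 on the log2 scale (adjusted p = 0.0207). Serpina3m went from 48.0 ± 6.43 to 22.0 ± 2.85 CPM, or -1.17 ± 0.25 (adjusted p = 0.0389). In each of these genes both IFN libraries were below both control libraries. Il1rn averaged 143 ± 87.4 against 30.4 ± 1.26 CPM, or -2.26 ± 0.49 (adjusted p = 0.041), and its control replicates differed 2.52-fold.

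The calls of day 14 were not equally firm. Tnn was called in all 12 fits that left out 1 library, at log2 values from -3.70 to -3.42. Dpep1 was called in 9 of the 12, and not without control day 14 replicate 1 or either IFN library of day 14 (adjusted p up to 0.279). Serpina3m was called in 7, and not without those 3 or either IFN library of day 21 (up to 0.413). Il1rn was called in 5, and not without control day 14 replicate 2 or any 1 of the 6 IFN libraries (up to 0.360). Il1rn also missed the limit with library size alone (adjusted p = 0.0654), with a replicate block (0.0638) and with only the groups compared (0.0552), and Serpina3m with library size alone (0.0954).

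Among the 15 members not called at day 14, log2 values ran from -1.32 to 0.27 (adjusted p from 0.105 to 0.986). In all, 18 of the 19 had a log2 value below 0, against 50.6% of all genes tested, and Tarm1 was the exception. With library size alone 17 of 19 were below 0. The median over the 19 was -0.70, against -0.01 over all genes. Without control day 14 replicate 1 the median was -0.47 and 16 of 19 were below 0. Without replicate 2 of that group it was -0.87 and 17 were below 0. In 12 of the 19 both IFN libraries were below both control libraries, an arrangement that 24.4% of all genes showed, and in 0 were both above, which 31% of all genes showed. The 12 were the called genes together with Lcn2, Ctla2a, Serpina3n, Fkbp5, Tsc22d3, Coro6, Mmp13 and Crispld2.

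At day 21 Tnn was the only member called lower with IFN, and 0 were called higher, where 0.156% of all genes were called lower and 0.839% higher. At an unadjusted p below 0.05 there were 5, all lower (13.1% of all genes in either direction), and DESeq2 called 4 lower, where it called 1.64% of all genes lower. Tnn averaged 326 ± 44.3 CPM in control and 19.1 ± 8.24 with IFN, a log2 difference of -4.28 ± 0.34 (adjusted p = 0.000351). It was called in all 12 fits that left out 1 library (log2 from -4.78 to -3.90), though not when only the day 21 libraries were fitted (adjusted p = 0.102), a fit that called 0.16% of 15650 genes higher and 0 lower. Dpep1 stood at -1.72 ± 0.37 (adjusted p = 0.070). The median over the 19 was -0.53, against -0.01 over all genes, but it was -0.11 without control day 21 replicate 2, -0.28 without IFN day 21 replicate 1 and -0.34 with library size alone. Both IFN libraries were below both control libraries in 5 members (Dpep1, Serpina3m, Serpina3n, Tnn and Crispld2; 13.6% of all genes) and above them in 4 (Zbtb16, Coro6, Shroom3 and Mmp13; 26.3% of all genes).

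The library that stood apart was 1 of the 2 in the control group of day 21. Without it, 3 members were called lower there (Lcn2, Serpina3n and Tnn), with 0.301% of all genes called lower and 0.735% higher. Without its replicate, so that control day 21 was that library alone, 6 were called, with Ccbe1 and Fkbp5 higher with IFN and Dpep1, Klf15, Tarm1 and Tnn lower, but 11.9% of all genes were then called higher and 10.7% lower. A single library left in a group is assumed there to vary like the other groups. The change of the IFN effect between the days was not called for any of the 19 (adjusted p from 0.652 to 0.977), nor for any gene tested. At an unadjusted p below 0.05 there were 4 of the 19 and 1315 of all genes (7.61%). DESeq2 called 23 genes with a larger (0.133%) and 8 with a smaller log2 value (0.0463%) at day 21, and 0 of the 19.

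**Figure D2:**
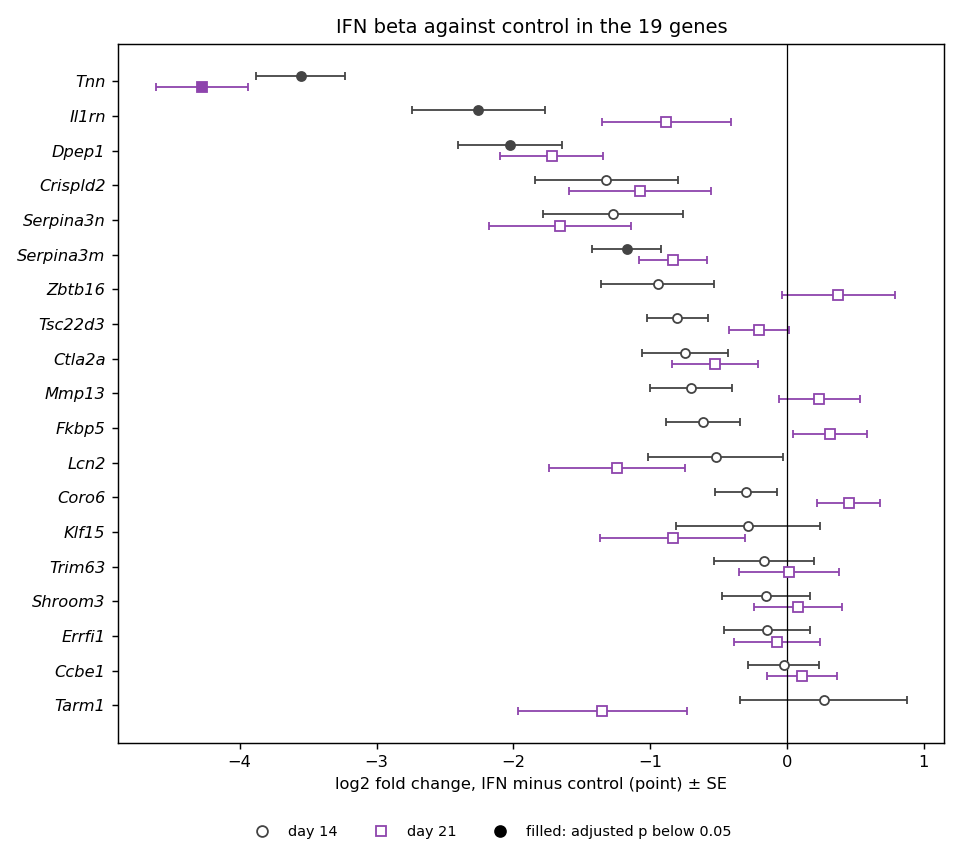
Log2 fold change of IFN against control (x, point with its SE) for the 19 genes (y) at day 14 (circles) and day 21 (squares), from edgeR over all 12 libraries. Filled points passed an adjusted p of 0.05, which were Tnn, Il1rn, Dpep1 and Serpina3m at day 14 and Tnn at day 21.

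All 19 genes were higher at days 14 and 21 in both arms by construction. Whether the size of the rise differed between the arms was tested as an interaction over days 14 and 21 together. The rule did not use this difference, but it bounded the rise in both arms from below. A gene whose rise was lost with IFN could not be among the 19, while the genes tested at large were not so bounded. Only Tnn was called, with a log2 difference in the rise, IFN minus control, of -4.42 ± 0.41 (adjusted p = 0.00162), where 0.0694% of all genes were called with a smaller rise and 0.416% with a larger one. From the group means, Tnn was 94.2 times its day 0 level at day 14 and 189 times at day 21 in control, and 5.75 and 7.70 times with IFN. Ccbe1 came next, at 2.17 ± 0.47 toward a larger rise with IFN (adjusted p = 0.0967). It was past the limit with DESeq2 (adjusted p = 0.0103), without a filter on low counts (0.0004), and without control day 21 replicate 1 (0.00324) or replicate 2 (0.0159). Its day 0 level with IFN was under 9 counts a library, and its later levels were close in the 2 arms.

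Tnn was also 1 of 7 tested genes of a list of 26 for osteoblasts and bone matrix that were called lower with IFN at day 14, beside Col1a1, Col5a1, Col5a2, Dlx5, Ibsp and Sparc. At day 21 it was 1 of 5, beside Col1a1, Col5a1, Col5a2 and Sparc. Of all genes tested, 0.995% were called lower at day 14 and 0.156% at day 21. At an unadjusted p below 0.05 there were 12 of the list at day 14, all lower, and 11 at day 21, of which 10 were lower. The shares of all genes in either direction were 13.8% and 13.1%. DESeq2 called 11 lower at day 14, and at day 21 it called Spp1 higher and the other 7 of its 8 lower. It called 3.55% of all genes lower at day 14 and 1.64% at day 21. The summed level of 10 osteoblast markers was 18411 to 24865 CPM in control and 11212 to 11351 CPM with IFN at day 14, and 17892 to 31523 and 19260 to 19980 CPM at day 21. The day 21 sums hide genes that lay apart in opposite directions. Col1a1 averaged 6969 CPM in control and 1184 with IFN, and Col1a2 9246 and 3181, while Spp1 averaged 6291 and 13704. The part of these markers in the lower Tnn was not tested.

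From day 14 to day 21 the test called 0 of the 19 genes in control and 0 with IFN. It called 5 of 17289 genes in control (0.0174% higher, 0.0116% lower) and none with IFN, where 1131 genes had an unadjusted p below 0.05 and DESeq2 called 102 higher (0.59%) and 12 lower (0.0694%). Unadjusted p-values were below 0.05 for 7 of the 19 in control (17.8% of all genes) and for 3 with IFN (6.54%). DESeq2 called Coro6, Fkbp5, Il1rn and Tsc22d3 lower and Tnn higher at day 21 in control (1.93% of all genes lower, 2.96% higher), and 0 of the 19 with IFN. Without control day 21 replicate 1 edgeR called 3 of the 19 higher and 3 lower in control (13.3% and 14.4% of all genes), and without replicate 2 it called Lcn2 alone, as higher (0.168% of all genes higher, 0.0231% lower). The same 3 genes, Fkbp5, Tsc22d3 and Coro6, had both day 21 libraries below both day 14 libraries in each arm. Their log2 values were -1.08 ± 0.27, -1.04 ± 0.22 and -1.11 ± 0.23 in control (adjusted p = 0.141, 0.116 and 0.116) and -0.16 ± 0.27, -0.44 ± 0.22 and -0.36 ± 0.23 with IFN (adjusted p = 0.978, 0.803 and 0.879). Errfi1 lay the other way in each arm, at 0.98 ± 0.32 in control and 1.06 ± 0.32 with IFN (adjusted p = 0.186 and 0.609).

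Such separation was common among all genes. In control 5 of the 19 were lower at day 21 without overlap (Serpina3m, Fkbp5, Il1rn, Tsc22d3 and Coro6; 23.1% of all genes) and 2 were higher (Tnn and Errfi1; 13.1%). With IFN 3 were lower (34.1% of all genes) and 10 higher (26.8%). When the 4 IFN libraries were fitted alone, 9 members were called, with Ccbe1, Crispld2, Dpep1, Errfi1, Lcn2, Shroom3 and Zbtb16 higher at day 21 and Fkbp5 and Tsc22d3 lower. In that fit 15.6% of all genes were called higher and 13.3% lower.

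**Figure D3:**
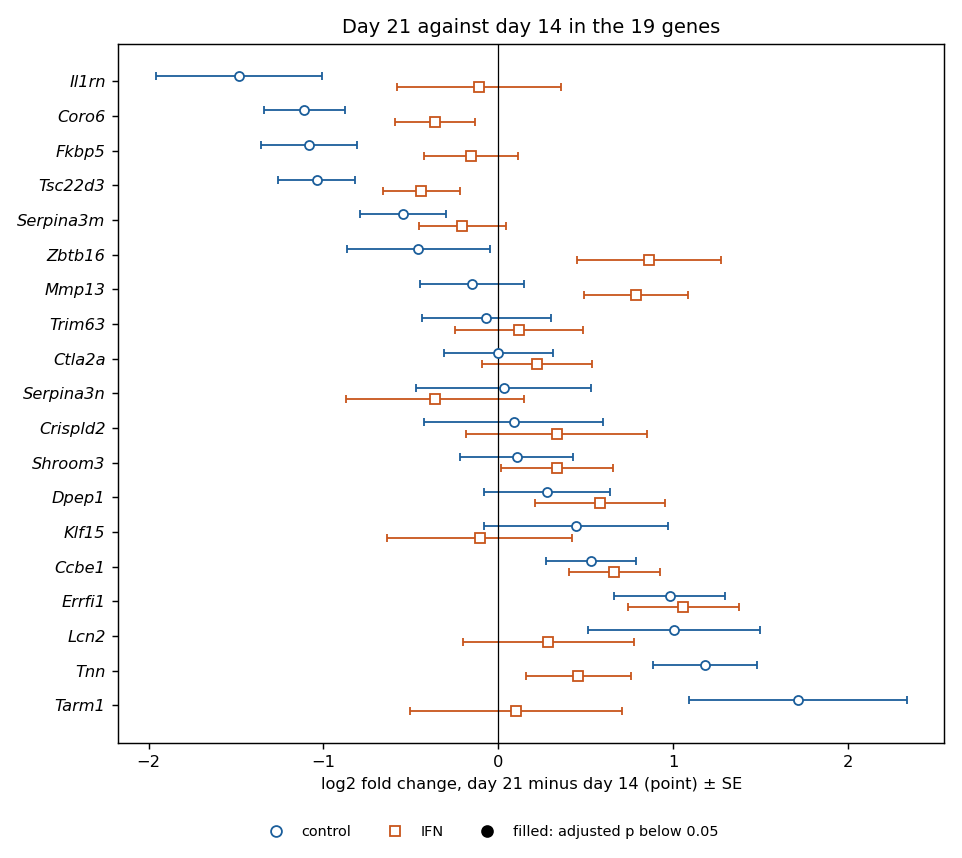
Log2 fold change of day 21 against day 14 (x, point with its SE) for the 19 genes (y) in control (circles) and with IFN (squares), from edgeR over all 12 libraries. No point is filled, since none passed an adjusted p of 0.05. Il1rn, Coro6, Fkbp5 and Tsc22d3 lie lowest in control, and Tarm1 and Tnn highest.

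Of 24 listed glucocorticoid targets, 5 were among the 19 genes (Fkbp5, Tsc22d3, Zbtb16, Errfi1 and Lcn2). Klf15 and Trim63, described above as known targets in muscle, are not on this list and are not counted here. The list was drawn up with earlier results of these data known, so the count is a description. Of the other 18 tested, 9 also had all 8 later libraries above all 4 of day 0, at smaller ratios of lowest to highest. Sgk1 (3.77), Glul (2.39), which encodes glutamine synthetase, and Mt1 (2.19), a metallothionein gene, led these, and Mt2 (1.12) came last. Sgk1 had 108 and 107 CPM in control at day 0, 429 and 499.7 by day 14 and 434 and 847 by day 21, and 114 and 112 (day 0), 732 and 659 (day 14) and 1083 and 1075 (day 21) with IFN. Another 7 overlapped day 0, among them Dusp1, Ddit4 and Txnip, and Foxo3 and Nr3c1 were below it. Nr3c1 encodes the glucocorticoid receptor itself, and was at 192 and 321 CPM in control and 316 and 333 with IFN at day 0, 121 and 98.1 and 95.9 and 89.1 at day 14, and 96.9 and 76.2 and 89.5 and 90.6 at day 21. The receptor's transcript was thus lower in all later libraries, as were 7.17% of all genes, while the 5 members were higher. None of the 23 tested was called with IFN at day 14 or day 21 by edgeR. At an unadjusted p below 0.05 there were 9 at day 14, all lower, and 5 at day 21, of which 4 were lower. The shares of all genes in either direction were 13.8% and 13.1%. DESeq2 called 5 lower at day 14 (Cebpd, Ddit4, Foxo3, Mt1 and Tsc22d3) and Glul lower at day 21. It called 3.55% of all genes lower at day 14 and 1.64% at day 21. The list's median log2 difference was -0.51 at day 14 and -0.07 at day 21.

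**Figure D4:**
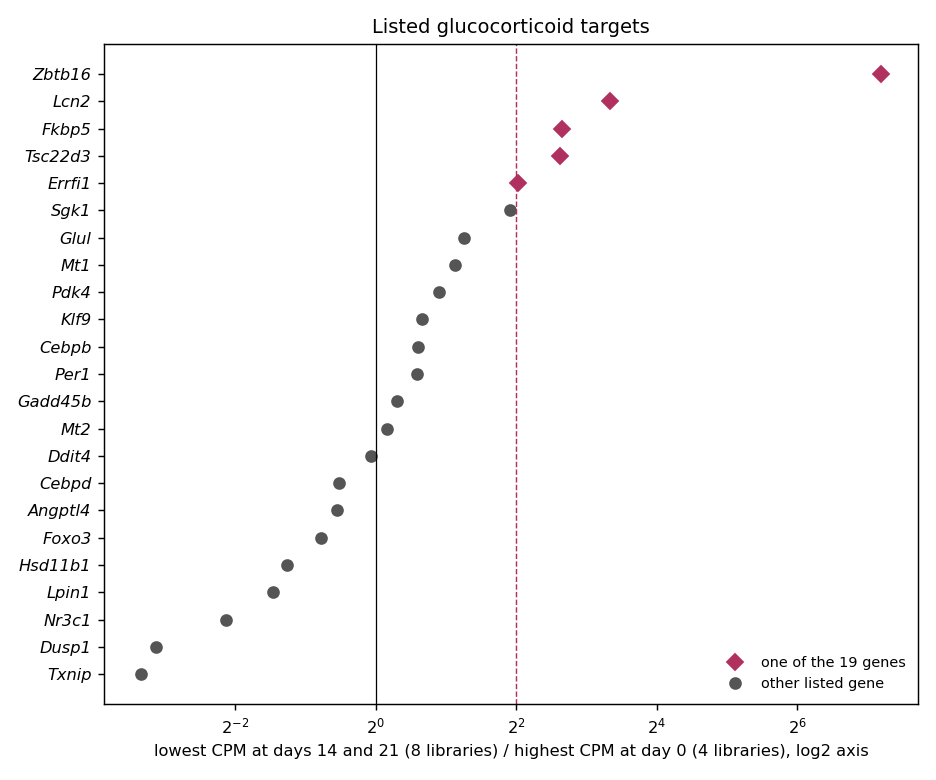
Ratio of the lowest CPM in the 8 libraries of days 14 and 21 to the highest CPM in the 4 day 0 libraries (x, log2 axis) for the 23 tested genes of the glucocorticoid list (y). Diamonds are members of the 19 and circles the other listed genes, the solid line marks equality and the dashed line the limit of 4. Sgk1, at 3.77, lies just below the limit.

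Of 27 tested genes of the acute phase and complement, 3 were members (Lcn2, Serpina3n and Il1rn) and 9 more had all later libraries above day 0. Orm1, an orosomucoid gene, had a ratio of 24.6 but only 1.55 CPM in its lowest later library, and Hp, the haptoglobin gene, had 3.91 with a lowest later level of 4.43 CPM. Both missed the limit of 5 CPM, and Hp and Lbp (3.61) the limit on the ratio. Other classic acute phase genes went against the pattern. Saa3 and Ptx3 overlapped day 0, with ratios of 0.238 and 0.186, and the complement genes C1ra, C1s1 and C1rl were lower in all later libraries. With IFN at day 14 the test called Il1rn and C1s1 of this list lower and C4b higher, and at day 21 C4b as higher. Of all genes, 0.995% were called lower and 1.3% higher at day 14, and 0.156% and 0.839% at day 21. At an unadjusted p below 0.05 there were 11 of the 27 at day 14, of which 9 were lower, and 13 at day 21, of which 12 were lower. The shares of all genes in either direction were 13.8% and 13.1%. DESeq2 called 6 at day 14 (5 lower) and 9 at day 21, with C4b higher and Serpina3n, C1s1, Hp, Orm1, Orm2, Ptx3, Saa3 and Steap4 lower. It called 3.55% of all genes lower at day 14 and 1.64% at day 21.

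Mmp13 and Serpina3n were the members on a list of 35 matrix proteases and inhibitors, of which 32 were tested and 1 further gene, Serping1, was above day 0 throughout. Mmp2, Mmp14, Timp1, Timp3 and Ctsk were among the 25 that overlapped day 0, and Mmp3, Mmp16, Timp2 and Serpinf1 were lower in all later libraries. On a list of mesenchymal transcription factors Klf15 was the only member. Of the 27 lists, 22 held none of the 19 genes, among them the lists for osteocytes, mineral handling, adipocytes, Wnt, Notch, the cell cycle and interferon-stimulated genes. The members on no list were Dpep1, Ccbe1, Serpina3m, Tarm1, Trim63, Ctla2a, Coro6, Shroom3 and Crispld2.

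Markers of the labelled cell type were present beside these genes. Runx2, the defining transcription factor of the osteoblast line, had 72.5 to 131 CPM in all 12 libraries, and Col1a1 had at least 1120.2 CPM. Other genes of the same list of 10 ranged widely. Spp1 (osteopontin) had 2015 to 13988 CPM and Dmp1, a matrix protein gene of late osteoblasts and osteocytes, 4.50 to 462 CPM, while Bglap (osteocalcin) had at most 5.57 CPM and Alpl (alkaline phosphatase) at most 24.2 CPM. The highest values of Spp1 and Dmp1 were with IFN at day 21. They averaged 13704 and 460 CPM there, against 6291 and 30.8 CPM in control at day 21. Ibsp (bone sialoprotein) had 0 counts in both control libraries of day 0 and averaged 17.2 and 17.5 CPM in control at days 14 and 21, against 1.49 and 7.92 CPM with IFN. Spp1, Ibsp, Alpl and Sp7 lay above day 0 in all 8 later libraries. Of the adipocyte markers Pparg had at most 4 counts and Adipoq at most 8, although Fabp4 was near the limit of the rule. Others of that list were present in all 12 libraries. Among them were Scd1 (70.7 to 202 CPM), Plin4 (8.17 to 63.7 CPM), Acsl1 (18.8 to 48.6 CPM), Cebpa (9.49 to 37.0 CPM) and Agpat2 (11.7 to 21.7 CPM). Of the 19 adipocyte markers, only Fabp4 and Apoe lay above day 0 in all 8 later libraries. The summed level of the 19 adipocyte markers was 263 to 354 CPM at day 0 and 207 to 297 CPM later.

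Apart from the adjoining Serpina3 pair, no neighbour of the 19 genes met the rule. Of 36 flanking protein-coding genes outside the 19, 20 averaged at least 1 CPM in the later libraries. Of these, 4 lay above day 0 in all later libraries by less than 1.5-fold from lowest to highest, namely Lman1, Prps1, Mid2 and Dcun1d5. Relatives named alike did not meet the rule either. Fkbp4, which encodes another co-chaperone of steroid receptors, averaged 204 CPM at day 0 and 162 CPM later, and Dpep2 averaged 2.29 and 3.58 CPM.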

How the data were processed

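Poly(A) RNA libraries, 12 in all, came from MC3T3-E1 cells. Per the submitters' processing notes the authors used HISAT2, SAMtools and featureCounts with mm10, and the deposited table holds raw counts per gene symbol. The annotation, versions and use of strand are not given in the sources used here, so overlapping, antisense and near-identical genes are uncertain. Table columns were matched to samples by arm, replicate number and day, with NC read as control. Positions are from GENCODE release M21, matched by symbol for 53292 of 55291 symbols and all 19 genes. CPM was computed from the deposited counts, scaled to 1000000 by column totals (29772425 to 38908453). Levels per length divide by the bases of a gene's merged exons.

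The members and the gene lists were chosen with earlier results of these data known. The 27 lists include glucocorticoid targets, acute phase and complement, matrix proteases and inhibitors, osteoblast and bone matrix, mesenchymal transcription factors and interferon-stimulated genes. Named were the 12 members with the largest ratio, the 12 with the highest mean CPM, up to 4 members per list, up to 4 called members per comparison and direction, and the 4 genes nearest each side of the ratio limit. Predicted genes of the last kind were not named. Shroom3 falls outside this rule and is named so that every member is accounted for. Neighbours, relatives, listed nonmembers and markers named in the text were chosen after their values were seen.

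Tests used R 4.3.3 with edgeR 4.0.16, by quasi-likelihood F tests over all 12 libraries with 1 mean per group, TMM scaling, filterByExpr (17289 genes kept), 6 residual degrees of freedom and Benjamini-Hochberg adjustment over all genes kept. "Called" means an adjusted p below 0.05. The fits were tested on simulated data in which all groups had the same spread between replicates. In the real libraries control replicates varied more than those with IFN, and the simulation does not cover this difference. Also run were DESeq2 1.42.0, RLE scaling, library size alone, other filters, only the groups compared, a replicate block, each library left out, both outlying control libraries left out, and other limits of the rule. The labels do not tie replicate numbers across groups.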

Additional observations from a re-analysis of the deposited data

Results flagged for a closer look

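Tnn, the tenascin gene, is singled out because its rise from day 0 differed between the arms in a direct test. The rule bounded the rise in both arms from below and did not use their difference. The log2 difference in the rise, IFN minus control, was -4.42 ± 0.41 (edgeR's quasi-likelihood test, adjusted p = 0.00162), and both IFN libraries were below both control libraries at day 14 and at day 21. It was called in all 12 fits that left out 1 library (log2 from -4.68 to -4.21).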

How the results depend on the processing

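Tnn kept its direction and stayed past the limit at day 14 and in the rise in every alternative that was run, and at day 21 in every one but the fit of the compared groups. Dpep1, Serpina3m and Il1rn kept their direction in every alternative run, and their lost calls are given above. Counts of called members moved more, and are given with the share of all genes called in either direction. At day 14 the count was 4 (2.29%), and it was 2 with library size alone (1.98%), 8 without a filter (3.46%), 9 without both outlying control libraries (16.1%) and 1 to 5 with 1 library left out (0.70% to 7.09%). At day 21 it was 1 (0.995%), and it was 7 without a filter (3.06%), 0 with only the groups compared (0.16%), 4 without both outlying libraries (4.92%), 4 with DESeq2 (3.67%) and 1 to 6 with 1 library left out (0.341% to 22.6%). For day 21 against day 14 in control it was 0 (0.0289%), and it was 8 without a filter (4.20%), 3 without both outlying libraries (3.84%), 5 with DESeq2 (4.88%) and 0 to 6 with 1 library left out (0% to 27.8%). With IFN it was 0 (0%), and it was 1 without a filter (0.807%), 9 with only the groups compared (28.9%) and 2 without both outlying libraries (4.30%). For the change of the IFN effect it was 0 (0%), and it was 2 without a filter (1.14%), 1 without both outlying libraries (0.515%) and 0 to 2 with 1 library left out (0% to 15.1%). For the difference in the rise it was 1 (0.486%), and it was 6 without a filter (2.33%), 3 without both outlying libraries (2.13%), 4 with DESeq2 (2.28%) and 1 to 2 with 1 library left out (0.0405% to 4.84%). The rule itself took 12 genes at a fold of 6, 35 without both outlying libraries and 19 to 29 with 1 library left out. The cause of these shifts was not tested.

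Same-numbered replicates did not deviate together (correlations from -0.051 to 0.11 over pairs of groups), and the labels do not pair them. With a replicate block 3 members were called at day 14, since Il1rn missed the limit (log2 -2.22), and 1 at day 21, and the block changed no other call. With library size alone, the median log2 value of all genes moved by 0.14 for IFN against control at day 21 and by -0.14 for day 21 against day 14 in control, and 11 and 12 of the 19 were then below 0, against 12 and 8 with TMM. Intervals from counts cover counting error only.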
